A study of Mus musculus with 8 samples.

Results

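The transcription factor p53, encoded by Trp53, and 9 of its direct target genes (Mdm2, Cdkn1a, Ccng1, Zmat3, Eda2r, Phlda3, Sesn1, Trp53inp1 and Aen) were followed in activated B cells with and without the RNA helicase EIF4A1. These 10 genes were chosen by name from the 53242 genes of the tables, and all 10 passed the filter on low counts. mRNA was measured by strand-specific RNA-seq in splenic B cells from C57BL/6 mice aged 8 to 12 weeks, cultured for 24 h with 40 ng/ml IL4 on CD40LB cells, a fibroblast line that presents CD40 ligand and had been irradiated with 120 Gy. The 4 control libraries were Eif4a1+/+ CD23-cre and the 4 4A1 KO libraries were Eif4a1fl/fl CD23-cre, so the Cre transgene was present in both genotypes. That transgene is driven by Fcer2a sequences and acts from the splenic immature B cell stage, and it removes exons 2 to 4 of Eif4a1, which makes the knockout one of splenic B cells and not of their bone marrow precursors. In each genotype, replicate 1 was male in batch A, replicate 2 female in batch A, replicate 3 male in batch B and replicate 4 female in batch B. The study left replicate 1 of both genotypes out for low viability. Tests here therefore used the 6 libraries of replicates 2 to 4, and the values of all 8 libraries are given.

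p53 is held at a low level in unstressed cells because MDM2, an E3 ubiquitin ligase and itself a p53 target, marks it for degradation. DNA damage, nucleolar stress and other insults release p53 from MDM2, mostly through changes to the protein, after which it binds its response element in target genes and raises their transcription. Its targets hold cells in G1, promote apoptosis, repair DNA and adjust metabolism, and in B cells activated to divide and to switch antibody class p53 limits survival after DNA breaks.

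Libraries held 31727557 to 43210858 counts, and the 6 tested held 38488341 to 43210858. Eif4a1, the targeted gene, was at 746 to 941 CPM (library-size-normalised counts, scaled between libraries by TMM) in control cells and at 559 to 689 CPM in 4A1 KO cells. It fell by 0.44 on the log2 scale (SE 0.05, adjusted p = 1.15e-04), with no overlap between the genotypes. These values cover the whole gene, including exons outside the deleted stretch. B cell markers summed to 6851 to 7851 CPM across the 8 libraries, and 3 of those 8 markers (Cd79a, Cd79b and Cd22) were called decreased in 4A1 KO cells. Fibroblast markers summed to 28.7 to 51.5 CPM in control and 25.4 to 37.0 CPM in 4A1 KO cells. Thy1 was the highest of them in batch B, at 12.1 to 31.6 CPM, where Col1a1 was at 5.25 to 7.59 CPM. The sums therefore do not follow the collagen genes alone. Of those 12 genes, 8 were tested, Fn1 was called increased and Col3a1 decreased, and Postn was at 0 in every library. Among T cell markers 0 of 2 tested were called and Cd3g was at 0 throughout, whereas the myeloid list, with 3 genes tested and S100a8 and S100a9 at 0, had Adgre1 called increased at 3.36 to 7.93 CPM. By the study's methods, CD40LB cells were labelled with an antibody and taken out with microbeads before RNA was isolated. The part of other cells in the results for p53 targets was not tested. RNA was measured in bulk, so a lower level in every cell and fewer cells of a kind cannot be told apart.

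Where the p53 response element lies near these genes was read from the reference genome (GRCm39), because the element is what makes a gene a direct target. The form of the element searched for is 20 bases long and consists of 2 adjacent 10-base motifs, each with a central C and G. Motifs with bases between them were not searched for. Windows of 5 kb on each side of the annotated start of the canonical transcript were searched for the p53 consensus on both strands, with all 4 core letters required and at most 2 other letters off. Of the 10 genes, 4 held at least 1 match (Cdkn1a, Ccng1, Zmat3 and Eda2r), and together they held 6. The same search found a match at 1281 of 11436 protein-coding genes tested (11.2%) and at 11 of 33 protein-coding genes on a further list of p53 targets (33.3%). The 6 matches are shown 5′ to 3′ on the strand of the gene, with the core C and G letters of both motifs in capitals.
Cdkn1a: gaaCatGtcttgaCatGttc
Ccng1 downstream of the start: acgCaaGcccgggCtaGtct
Ccng1 upstream of the start: agaCctGcccgggCaaGcct
Zmat3 in the intron: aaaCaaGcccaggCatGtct
Zmat3 upstream of the start: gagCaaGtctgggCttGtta
Eda2r: gggCaaGtccgggCctGtgt

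The Cdkn1a match, at chr17:29309902-29309921 on the plus strand, lay upstream of the canonical start, at position -2826, and was 1 letter off the consensus. Ccng1, on the minus strand, had a match in its intron at chr11:40645763-40645782, 366 bases downstream of the start, and another upstream at chr11:40646289-40646308, position -160, each 1 letter off. Zmat3, also on the minus strand, held the only full match among the 10 genes, at chr3:32418480-32418499, 1418 bases downstream of the start. It lies in an intron of the canonical transcript and in an exon of another transcript of the gene. Full matches were found at 30 of 11436 protein-coding genes tested (0.262%). The other Zmat3 match, at chr3:32424300-32424319, lay upstream, at position -4402, and was 1 letter off, and the Eda2r match at chrX:96420140-96420159, 690 bases downstream in an intron of the canonical transcript and an exon of another, was 2 letters off. No such run of letters was found in the windows of Trp53, Mdm2, Phlda3, Sesn1, Trp53inp1 and Aen, which says only that this consensus, at this stringency, is not within these windows. A match is a description of the sequence, and p53 binding was not measured.

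**Figure D1:**
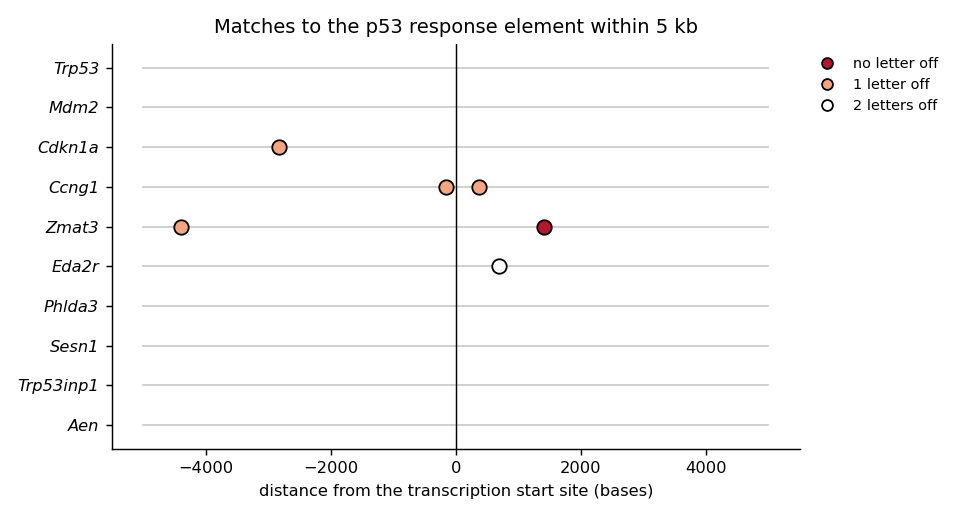
Position of each match to the p53 response element relative to the start of the canonical transcript (0, in bases, positive in the direction of transcription) for the 10 genes, with grey lines for the 10 kb searched and the fill of each point for the letters off the consensus. Ccng1 and Zmat3 have 2 matches each, Cdkn1a and Eda2r have 1, and only Zmat3 has a match with no letter off.

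Of the 9 targets, 8 had at least 271 counts in every library and positive log2 fold changes in 4A1 KO against control cells, while that of Trp53 was slightly negative. Eda2r, also positive, is set apart because it reached the filter on low counts mainly through its 4A1 KO libraries. Only Zmat3 passed both thresholds of a call, which were an adjusted p below 0.05 and a log2 fold change beyond 0.5 in either direction. Ccng1, Trp53inp1 and Aen passed the adjusted p with smaller differences. That is 1 of 10 called increased, where 11.6% of the 14218 genes tested were called increased and 13.7% decreased, so the number called among these genes is near the background. By adjusted p alone 4 of 10 increased and 0 decreased, where 26.3% of all genes tested increased and 26.7% decreased. The median log2 fold change was 0.22 for the 9 genes other than Eda2r and 0.01 for all genes tested, of which 7192 were positive. Within same-numbered pairs of libraries, 6 of the 8 targets other than Eda2r were higher in 4A1 KO cells in replicate 1, 8 in replicate 2, 8 in replicate 3 and 6 in replicate 4, where 49.6% to 51.3% of all genes tested were higher.

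**Figure D2:**
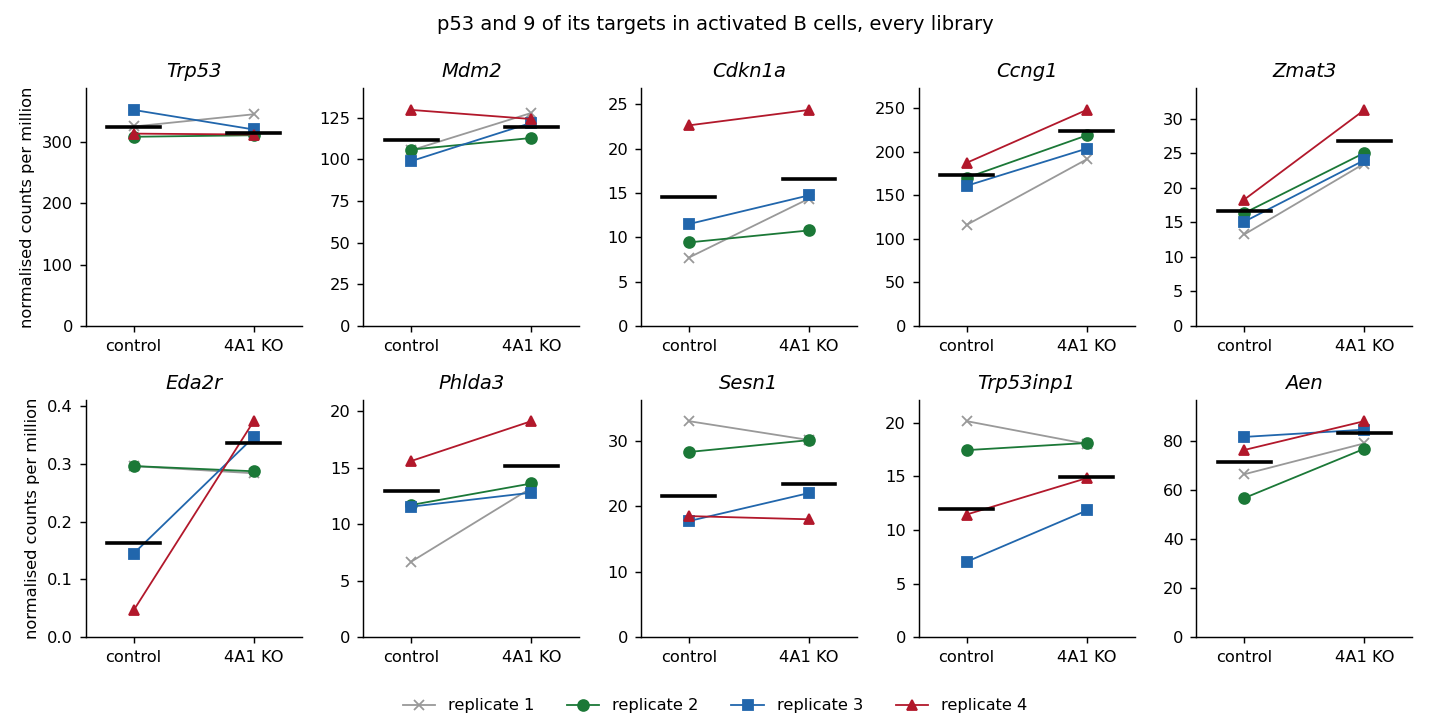
CPM (TMM-scaled counts, linear axis from 0) of the 10 genes in every library, with lines joining same-numbered control and 4A1 KO libraries and black bars for the mean of replicates 2 to 4. All 4 4A1 KO libraries lie above all 4 control libraries for Ccng1 and Zmat3, whereas the genotypes overlap for the other 8 genes.

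Trp53 mRNA, the message for p53 itself, was at nearly the same level in both genotypes. It stood at 325, 308, 352 and 313 CPM in control replicates 1 to 4 and at 345, 311, 320 and 312 CPM in the 4A1 KO replicates. The 4A1 KO libraries all fell within the control range, and control replicate 3 was the highest. The difference was -0.04 on the log2 scale (SE 0.05, 95% confidence interval -0.15 to 0.07, adjusted p = 0.467), that is 0.970 of the control level with an interval from 0.899 to 1.05. Trp53 lies at chr11:69469669-69482701, 75.1 kb from Eif4a1 on the same chromosome. It shares 263 exonic bases with the antisense gene Wrap53, which the strand-specific counts keep apart, and its processed pseudogene Trp53-ps had 116 to 165 counts a library where Trp53 had 10938 to 14596.

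Mdm2 (chr10:117524780-117546730), which encodes the ligase that degrades p53, was at 105.4, 105.8, 98.9 and 130 CPM in control and at 128, 113, 122 and 124 CPM in 4A1 KO replicates 1 to 4. Control replicates 1 to 3 were below every 4A1 KO library and control replicate 4 was above all of them, so the groups overlapped. The log2 fold change was 0.11 (SE 0.07, 95% confidence interval -0.04 to 0.26, adjusted p = 0.206). It was 0.02 without replicate 3 (adjusted p = 0.856) and 0.19 without replicate 4 (adjusted p = 0.0268), short of the fold threshold in each.

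Among the targets linked to growth control, Zmat3 and Ccng1 rose and Cdkn1a did not pass the test. Zmat3, at chr3:32388941-32420163, encodes a zinc finger protein that binds RNA and was at 13.3, 16.4, 15.1 and 18.3 CPM in control replicates 1 to 4. In 4A1 KO replicates 1 to 4 it was at 23.5, 25.1, 24.0 and 31.3 CPM, and every one of these was higher than every control value. Zmat3 was 1.61-fold higher in 4A1 KO cells (95% confidence interval 1.42 to 1.82, log2 fold change 0.69, SE 0.08, adjusted p = 1.24e-04). The ratio within the 4 pairs ran from 1.53 to 1.77. It was called under every alternative processing and after leaving out any replicate, with log2 fold changes between 0.64 and 0.73 without replicate 2, 3 or 4.

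Ccng1 (chr11:40639377-40646148) encodes cyclin G1, a cyclin that p53 induces and that recruits a phosphatase to MDM2. It was at 116, 170, 161 and 187 CPM in control replicates 1 to 4 and at 191, 219, 203 and 248 CPM in 4A1 KO replicates 1 to 4. Control replicate 1 was the lowest, and the lowest 4A1 KO library still exceeded the highest control library. The fold change was 1.29 (95% confidence interval 1.20 to 1.39, log2 0.37, SE 0.05, adjusted p = 2.05e-04), which is past the adjusted p and below the fold threshold. In CPM over 8 libraries, Ccng1 and Zmat3 were the 2 of 10 genes with every 4A1 KO library above every control library, and 17.6% of all 14211 genes tested in the 8 libraries were so placed and 19.2% in the opposite order. The exact two-sided permutation p was 0.0286 for each, the smallest that 4 libraries against 4 can give. Such full separation always gives this value, and the permutation ignored the pairing of libraries by replicate number.

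Cdkn1a encodes p21, the inhibitor of cyclin-dependent kinases through which p53 arrests cells in G1. The gene lies at chr17:29309936-29319701, and its level differed more between replicates than between genotypes. Control replicates 1 to 4 were at 7.72, 9.42, 11.5 and 22.6 CPM, and 4A1 KO replicates 1 to 4 at 14.4, 10.8, 14.7 and 24.4 CPM. Replicate 4 was the highest library of both genotypes, and within every pair the 4A1 KO library was higher, by 1.08-fold to 1.86-fold. The log2 fold change was 0.22 (SE 0.09, 95% confidence interval 0.02 to 0.42), and its adjusted p of 0.0663 missed the threshold. With upper quartile normalization the adjusted p was 0.0461 at a log2 fold change of 0.24, and without the pairing of replicates it was 0.711.

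Of the targets linked to cell death, Aen passed the adjusted p, Phlda3 narrowly did not, and Eda2r was close to undetected. Aen (chr7:78545602-78560957), an exonuclease gene that p53 induces and that promotes apoptosis, was at 66.6, 56.9, 81.9 and 76.5 CPM in control replicates 1 to 4 and at 79.2, 77.0, 84.8 and 88.3 CPM in 4A1 KO replicates 1 to 4. Each 4A1 KO library was higher than the control of its own number, although the ranges overlapped. The log2 fold change was 0.23 (SE 0.07, adjusted p = 0.0248). Without replicate 2, which held the lowest control value, it was 0.13 with an adjusted p of 0.176. The long annotated transcript of Aen, of 11171 bases, shares stretches at least 95% identical with other genes, including 1300 bases at 95.8% with Bzw2 on the same strand, so part of its count is uncertain.

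Phlda3, at chr1:135693809-135697686, encodes a small pleckstrin homology protein that keeps the survival kinase AKT from the membrane. It was at 6.68, 11.7, 11.5 and 15.6 CPM in control replicates 1 to 4 and at 13.2, 13.6, 12.8 and 19.1 CPM in the 4A1 KO replicates. Control replicate 1 was low and replicate 4 high in each genotype, so the ranges overlapped, while all 4 pairs had the higher value in 4A1 KO cells. Replicates 2 to 4 gave a log2 fold change of 0.22 (SE 0.09, adjusted p = 0.0567). With upper quartile normalization it was 0.24 (adjusted p = 0.0398). With replicate 1 added, whose own ratio was 1.98, it was 0.40 (SE 0.12, adjusted p = 0.0194).

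Eda2r (chrX:96320270-96420847), which encodes a receptor of the TNF receptor superfamily for ectodysplasin A2, had between 2 and 16 counts a library. There were 12, 12, 6 and 2 counts in control replicates 1 to 4 and 9, 11, 14 and 16 counts in 4A1 KO replicates 1 to 4. The genotypes were alike in batch A and apart in batch B. The log2 fold change of 1.10 had an SE of 0.54 (95% confidence interval -0.12 to 2.33, adjusted p = 0.116), and it was 0.54 without replicate 4 (adjusted p = 0.459). Without replicate 2 it was 1.91 with an adjusted p of 0.0427, but the control libraries left then held 6 and 2 counts, so the gene passed the filter on low counts through the 4A1 KO libraries. At this depth neither an unchanged level nor a several-fold difference can be told from the counts.

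Trp53inp1 and Sesn1 are targets of the stress response. Trp53inp1 (chr4:11156412-11175230), whose product is a nuclear stress protein that takes part in p53 signalling and autophagy, was at 20.1, 17.4, 7.04 and 11.4 CPM in control replicates 1 to 4. The 4A1 KO replicates were at 18.0, 18.1, 11.8 and 14.8 CPM. Batch A was higher than batch B in both genotypes, and the genotypes differed within batch B, by 1.68-fold in replicate 3 and 1.30-fold in replicate 4, with ratios of 0.895 and 1.04 in replicates 1 and 2. The log2 fold change over replicates 2 to 4 was 0.38 (SE 0.13, adjusted p = 0.0341). It was 0.56 without replicate 2 (adjusted p = 0.0171, past both thresholds), 0.22 without replicate 3 (adjusted p = 0.189) and 0.22 with replicate 1 added (adjusted p = 0.262).

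Sesn1 (chr10:41685931-41784423), encoding sestrin 1, which restrains mTORC1 after p53 activation, was at 33.0, 28.3, 17.8 and 18.5 CPM in control replicates 1 to 4. In 4A1 KO replicates 1 to 4 it was at 30.2, 30.1, 22.1 and 18.0 CPM. The values followed the batch and not the genotype, with every batch A library above every batch B library. Its log2 fold change was 0.12 (SE 0.09, 95% confidence interval -0.08 to 0.32, adjusted p = 0.273), with 0.03 without replicate 3 and 0.19 without replicate 4. The antisense gene Cep57l1 shares 548 exonic bases with it.

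**Figure D3:**
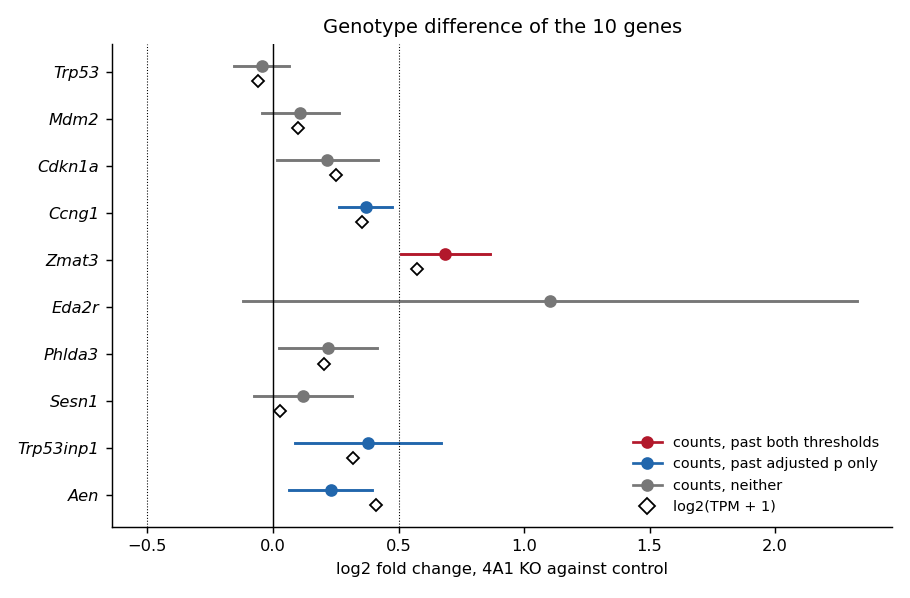
Log2 fold change of 4A1 KO against control from counts for the 10 genes (circles, with 95% confidence intervals) and from log2(TPM + 1) for the 9 tested in TPM (diamonds, all but Eda2r), with dotted lines at the fold threshold of 0.5. Zmat3 alone is past both thresholds at 0.69, the interval of Trp53 spans 0, and that of Eda2r runs from -0.12 to 2.33.

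The second deposited measure, TPM (transcript abundance scaled for transcript length and library size), gave a similar picture on the log2(TPM + 1) scale, which understates the change of low genes. Zmat3 was again the only gene called, at 0.57 (SE 0.06, limma adjusted p = 0.00454), where 8.29% of 12976 genes tested in TPM were called increased. By adjusted p alone Ccng1 (0.35, adjusted p = 0.00989), Aen (0.41, adjusted p = 0.0111) and Phlda3 (0.20, adjusted p = 0.0496) also passed, 4 of 9 tested, where 22.3% of all genes passed in that direction. Phlda3 lost its pass with a pseudocount of 0.1 (adjusted p = 0.0557), with no filter on low TPM (adjusted p = 0.0502) and without replicate 2, 3 or 4 (adjusted p = 0.146, 0.119 and 0.165), and Ccng1 lost it without replicate 3 (adjusted p = 0.0511). Trp53inp1, which passed in counts, was at 0.32 with an adjusted p of 0.0813 (0.45 and 0.0453 without replicate 2), and Cdkn1a was at 0.25 with 0.0508 (0.33 and 0.0482 without replicate 4). Trp53 was at -0.06 (adjusted p = 0.470). Eda2r was below the mean of 1 TPM needed for the fit. Only Zmat3 had every 4A1 KO library above every control library in TPM, a position shared by 16.0% of all genes tested, and its exact permutation p was 0.0286.

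Levels can be set between genes only per length, in TPM. In control cells the order by median TPM was Trp53 (327), Ccng1 (87.8), Mdm2 (67.5), Aen (45.8), Phlda3 (15.1), Sesn1 (14.4), Cdkn1a (10.6), Trp53inp1 (5.32), Zmat3 (3.88) and Eda2r (0.111). Neighbouring ranges overlapped for Ccng1 and Mdm2, for Phlda3 and Sesn1, for Sesn1 and Cdkn1a, and for Trp53inp1 and Zmat3. Trp53, at 313 to 359 TPM in control libraries, was above every one of its targets here in all 4. In 4A1 KO cells the order by median was the same except that Cdkn1a (14.5) stood above Sesn1 (14.1), with overlapping ranges. The ranges of Ccng1 (96.7 to 135) and Mdm2 (72.2 to 84.7) no longer overlapped there. Zmat3 and Trp53inp1 overlapped in 4A1 KO cells too, with medians of 6.08 and 6.10 TPM. Zmat3, the only called gene, was at 3.18 to 4.63 TPM in control and 5.42 to 7.81 TPM in 4A1 KO libraries.

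Much of the spread within a genotype followed the batch and the replicate number. The tests of the batch term and of the sex term were added after the values had been seen. Over 8 libraries, 3 of the 10 genes were called between batches, where 6.75% of all genes tested were called in either direction. Sesn1 fell by 0.68 on the log2 scale from batch A to batch B (SE 0.08, adjusted p = 5.09e-04), with means of 30.4 and 19.1 CPM. Trp53inp1 fell by 0.75 (SE 0.16, adjusted p = 0.00826), from 18.4 to 11.3 CPM. Cdkn1a was higher in batch B by 0.75 (SE 0.19, adjusted p = 0.0170), at 18.3 against 10.6 CPM. Without replicate 1, where replicate 2 is the only batch A pair and the batch term compares replicate 4 with replicate 2, Cdkn1a (1.21, adjusted p = 9.56e-04) and Sesn1 (-0.68, adjusted p = 0.00769) were called, where 4.51% of genes were, and Trp53inp1 (-0.46, adjusted p = 0.0859) was not. What a batch differed in is not given in the sources used here.

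Between males and females, 0 of the 10 genes were called over 8 libraries, where 2.43% of genes were. Ccng1 was lower in males by 0.30 on the log2 scale (SE 0.06, adjusted p = 0.0251), below the fold threshold. Without replicate 1, whose removal leaves replicate 3 as the only male pair, Cdkn1a was called at -0.84 (adjusted p = 0.0339), where 0.113% of genes were called. In those 6 libraries the highest Cdkn1a values were those of replicate 4, at 22.6 and 24.4 CPM.

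**Figure D4:**
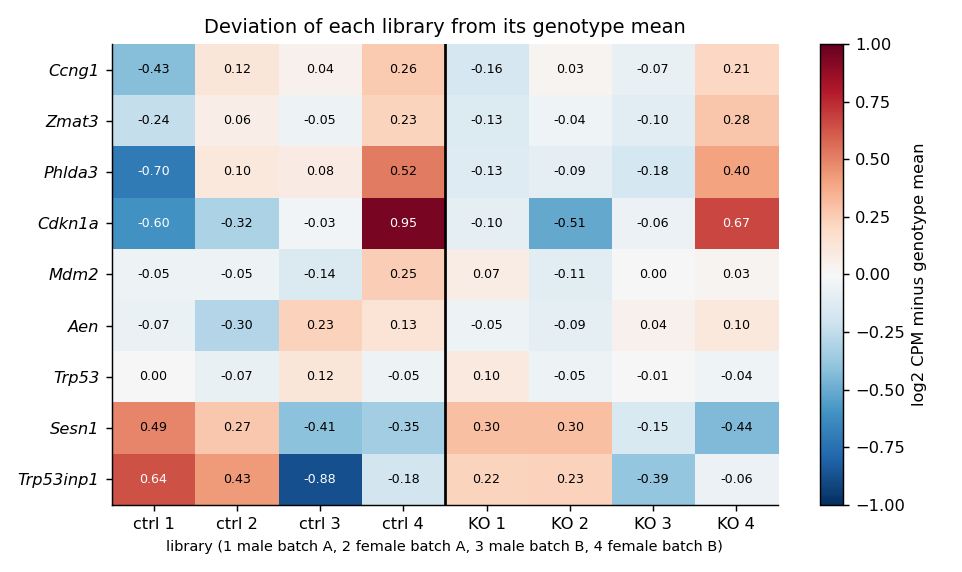
Log2 CPM of each library minus the mean of its genotype for 9 of the 10 genes (Eda2r left out for its low counts), with colour and printed values on the log2 scale. Ccng1, Zmat3, Phlda3 and Cdkn1a are highest in replicate 4 of both genotypes and lowest in control replicate 1 among controls, while Sesn1 and Trp53inp1 are high in batch A and low in batch B.

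Ccng1, Zmat3, Phlda3 and Cdkn1a shared their extremes among libraries of the same genotype. These targets were each lowest in replicate 1 among controls, with deviations from the genotype mean of log2 CPM of -0.43, -0.24, -0.70 and -0.60. Each was highest in replicate 4, by 0.26, 0.23, 0.52 and 0.95 in control and by 0.21, 0.28, 0.40 and 0.67 in 4A1 KO cells. Sesn1 and Trp53inp1 had the opposite sign in both libraries of replicate 1 and of replicate 4, with deviations of 0.49 and 0.64 in control replicate 1 and of -0.35 and -0.18 in control replicate 4. In control replicate 2 they shared the positive sign of Ccng1, Zmat3 and Phlda3, and in 4A1 KO replicate 3 the negative sign of those and Cdkn1a. Trp53 itself stayed between -0.07 and 0.12 in all 8 libraries. Libraries share depth, batch and sex in these patterns, so they are a description of 8 libraries.

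Of the 8382 genes that averaged 10 CPM or more, those most like Trp53 over the 8 libraries, after subtraction of each genotype mean, were Cd40 (Pearson r = 0.99), Pfdn2 (0.97) and Emg1 (0.96). Those most like Cdkn1a were Gtf3c3 (0.97), Znhit3 (0.97) and Dlst (0.96). These coefficients are the highest of many over 8 points that share batch and sex, and are given with no test.

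The genotype difference was not shown to differ between sexes or batches. For the genotype by sex term 0 of 14211 genes passed an adjusted p of 0.05 in edgeR (0.0%), with 405 at an unadjusted p under 0.05, of which 0 were among the 10. For the genotype by batch term 1 gene passed (0.00704%), which was not one of the 10, and 610 had an unadjusted p under 0.05. These included Eda2r and Trp53inp1, whose 4A1 KO differences were larger in batch B by 1.96 (SE 0.74, unadjusted p = 0.0280, adjusted p = 0.999) and by 0.62 (SE 0.27, unadjusted p = 0.0477, adjusted p = 0.999) on the log2 scale. Zmat3 differed between batches by 0.02 (95% confidence interval -0.30 to 0.34) and between sexes by 0.04 (95% confidence interval -0.29 to 0.37).

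Of 34 further targets listed, 31 were tested, with 12 positive and 19 negative log2 fold changes and a median of -0.07. Calls numbered 3 increased and 6 decreased of 31, where 11.6% and 13.7% of all genes tested were called. The 3 increased calls became 1 without replicate 3 and 6 without replicate 4, where 9.79% and 12.1% of all genes tested were called increased. The 6 included Perp, which is not among the 31 and passed the filter on low counts there through its 4A1 KO libraries. By adjusted p alone 7 increased and 13 decreased, where 26.3% and 26.7% of all genes did. In the 4 pairs, 11 to 15 of the 31 were higher in the 4A1 KO library.

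Among the 9 cell death targets tested, Bbc3, encoding the BH3-only protein PUMA, was called increased and Pidd1, which encodes a death domain scaffold, was called decreased, or 1 of 9 in each direction beside the 11.6% and 13.7% of all genes. Bbc3 was at 13.0 ± 5.19 CPM in control and 20.4 ± 1.94 CPM in 4A1 KO cells (SD, n = 3), a log2 fold change of 0.70 (SE 0.16, adjusted p = 0.00558). Its ranges overlapped, and without replicate 3 it was at 0.46 (adjusted p = 0.0126), below the fold threshold. Pidd1 fell by 0.72 (SE 0.07, adjusted p = 7.77e-05), from 33.6 ± 6.31 to 20.6 ± 5.16 CPM. By adjusted p alone 4 of the 9 increased and 4 decreased, where 26.3% and 26.7% of all genes did. Bax, the pore-forming effector, rose by 0.23 (SE 0.05, adjusted p = 0.00361), below the fold threshold, and the death receptor gene Fas fell by 0.28 (SE 0.07, adjusted p = 0.00794). Tnfrsf10b, at 0.49 (adjusted p = 0.00168), was just under the fold threshold and was called increased without replicate 4 (0.501, adjusted p = 0.00394). Perp was below the filter on low counts, with 4, 0, 1 and 5 counts in control replicates 1 to 4 and 12, 19, 14 and 10 counts in 4A1 KO replicates 1 to 4. It is named after its values were seen and was not tested in the fit of replicates 2 to 4. Without replicate 4, Perp passed the filter through its 4A1 KO libraries and was called increased (log2 fold change 4.78, adjusted p = 4.21e-04).

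In growth arrest, 2 of 7 tested genes were called increased and 1 decreased, beside the 11.6% and 13.7% of all genes. Btg2, an antiproliferative regulator of mRNA deadenylation, was called increased at 0.56 (SE 0.10, adjusted p = 0.00162), though it was at 0.49 without replicate 2 and at 0.50, just under the threshold, without replicate 3. The kinase gene Plk3 was called at 0.67 (SE 0.08, adjusted p = 1.48e-04). Plk3 rose from 27.1 ± 1.28 to 43.2 ± 4.10 CPM (SD, n = 3), with no overlap over 8 libraries. Ptprv, a tyrosine phosphatase gene, was called decreased at -0.90 (SE 0.24, adjusted p = 0.0127), from 1.99 to 1.08 CPM, and was not without replicate 3 (-0.60, adjusted p = 0.0842). By adjusted p alone 2 of the 7 increased and 2 decreased, where 26.3% and 26.7% of all genes did. Sfn, at -0.46 (adjusted p = 0.00755), was below the fold threshold and was called decreased without replicate 4 (-0.56, adjusted p = 0.00233). Gadd45a (-0.07, adjusted p = 0.628) and Ppm1d (-0.05, adjusted p = 0.630) did not pass.

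DNA repair and metabolic targets held the remaining calls over replicates 2 to 4, and all of these were decreases. Polh, which encodes the translesion polymerase eta, fell by 1.12 on the log2 scale (SE 0.11, adjusted p = 5.28e-05), from 28.2 ± 5.77 to 13.1 ± 4.02 CPM (SD, n = 3). Of the 6 repair genes 0 were called increased and 1 decreased, and of the 9 metabolic genes 0 and 3, beside the 11.6% and 13.7% of all genes. In metabolism, Gls2, a glutaminase, was at -1.15 (SE 0.39, adjusted p = 0.0340) on 3 to 35 counts a library, and lost its call without replicate 2 (adjusted p = 0.106) and without replicate 4 (adjusted p = 0.161). Ddit4, an inhibitor of mTORC1, was at -0.78 (SE 0.13, adjusted p = 9.63e-04), and Fdxr, ferredoxin reductase, at -0.55 (SE 0.07, adjusted p = 3.36e-04). Sesn2 was called increased without replicate 2 (0.54, adjusted p = 0.0347) and without replicate 4 (0.60, adjusted p = 8.81e-05). Dram1 was called increased without replicate 2 (1.83, adjusted p = 0.0270). The control libraries left then held 5 and 4 Dram1 counts, so it passed the filter through its 4A1 KO libraries. Ddit4 held 2 full matches to the response element in its window, so a full match was found both at a target that rose, Zmat3, and at one that fell. Among all protein-coding genes tested, those with a match were called increased in 11.6% and decreased in 16.5% of 1281 cases, and those without in 10.6% and 14.9% of 10155.

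**Figure D5:**
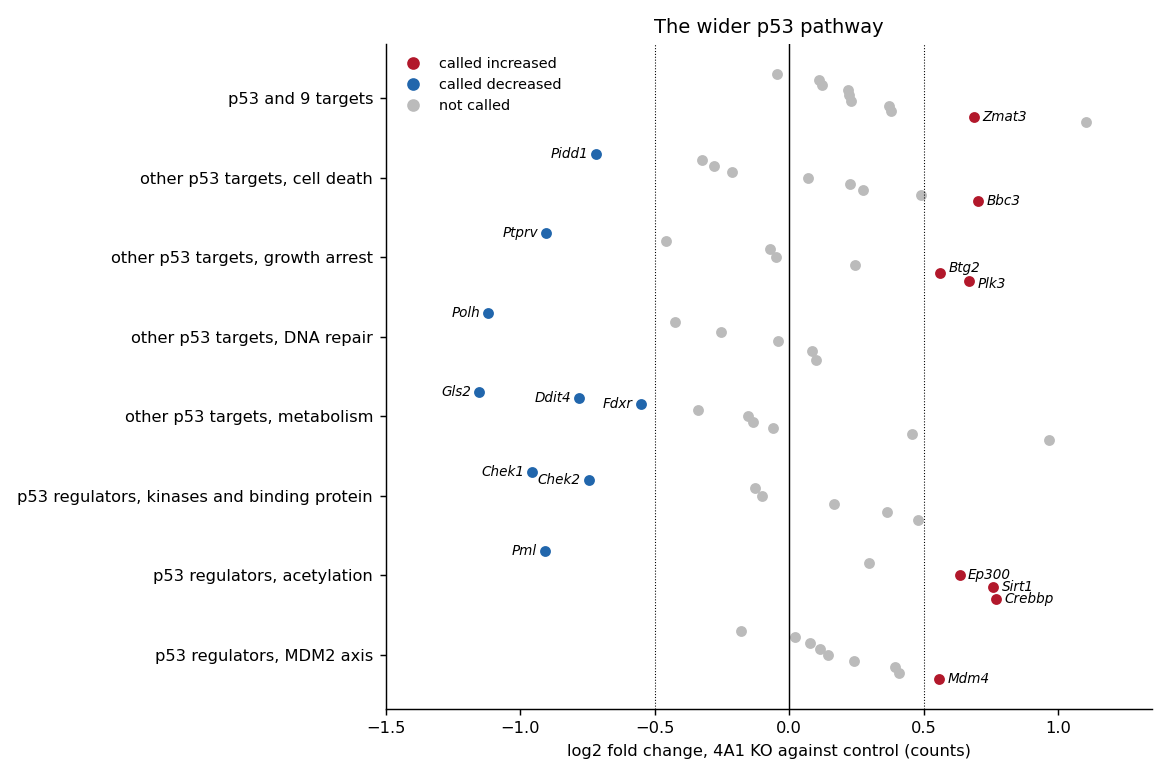
Log2 fold change from counts (4A1 KO against control) of every tested gene among p53 and its 9 targets, other p53 targets in 4 groups and p53 regulators in 3 groups, 1 point a gene, with dotted lines at -0.5 and 0.5 and names for called genes. Calls in the other targets number 3 increased and 6 decreased, and those in the regulators 4 increased and 3 decreased.

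Regulators of p53 were tested for all 21 genes listed, with 4 called increased and 3 decreased, where 11.6% and 13.7% of all genes tested were called, and a median log2 fold change of 0.17. By adjusted p alone 11 increased and 4 decreased, where 26.3% and 26.7% of all genes did. The checkpoint kinase genes Chek1 (-0.96, SE 0.07, adjusted p = 2.07e-05) and Chek2 (-0.74, SE 0.12, adjusted p = 7.86e-04), whose products phosphorylate p53 after DNA damage, were called decreased. Chek1 went from 81.2 ± 13.3 to 42.1 ± 9.73 CPM (SD, n = 3), without overlap over 8 libraries. The upstream kinase gene Atm was at -0.10 (adjusted p = 0.123).

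Of 5 acetylation regulators, 3 were called increased and 1 decreased, beside the 11.6% and 13.7% of all genes. Crebbp (0.77, SE 0.06, adjusted p = 1.91e-05) and Ep300 (0.63, SE 0.05, adjusted p = 3.06e-05), the acetyltransferases that act on p53, were called increased. So was Sirt1 (0.76, SE 0.07, adjusted p = 3.87e-05), which encodes a deacetylase of p53. Pml, whose product gathers p53 and its modifiers in nuclear bodies, was called decreased (-0.91, SE 0.06, adjusted p = 1.36e-05). On the MDM2 axis, only Mdm4, encoding the partner of MDM2 that covers the p53 activation domain, was called, at 0.56 (SE 0.05, adjusted p = 4.92e-05). It was at 140 ± 21.1 CPM in control and 206 ± 16.4 CPM in 4A1 KO cells (SD, n = 3), and every 4A1 KO library exceeded every control library.

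The mRNAs of ribosomal proteins that bind MDM2 and free p53 when ribosome assembly falters did not move in 1 direction, with Rpl5 at 0.14 (adjusted p = 0.0187), Rpl11 at -0.18 (adjusted p = 0.00951) and Rpl23 at 0.08 (adjusted p = 0.151). Of the p53 family, Trp73 was at -1.33 (SE 0.64, adjusted p = 0.111) on 1 to 34 counts a library, and Trp63, with 0 to 2 counts, was not tested.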

How the data were processed

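RNA-seq libraries (paired 50 bp reads, directional kit) of 4 control and 4 4A1 KO B cell cultures were compared. The authors trimmed reads with Trim Galore 0.6.6 and aligned them to GRCm39 with HISAT2 2.1.0. The deposited raw counts per gene were made by the authors with strand-specific counting over merged isoforms, and the deposited TPM with StringTie 2.1.1. The treatment of reads with several alignments is not given in the sources used here.

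Counts were fitted in R 4.3.3 with edgeR 4.0.16 (filterByExpr by genotype, TMM, quasi-likelihood, batch, sex and genotype) over 14218 genes of replicates 2 to 4, with two-sided tests and Benjamini-Hochberg adjustment over all genes. Calls needed an adjusted p below 0.05 and a log2 fold change beyond 0.5 in either direction. CPM are TMM-scaled over all 8 libraries. TPM were fitted with limma 3.58.1 on log2(TPM + 1) over genes averaging 1 TPM or more, and compared with exact permutation tests over 8 libraries. The permutation tests held no batch, sex or replicate pairing. DESeq2 1.42.0 was an alternative. In simulated data for control against 4A1 KO, 200 of 14218 genes were changed by a log2 fold change of 1 or -1. Of these, edgeR recovered 184 with 2 false calls and DESeq2 recovered 160 with 0 false calls. In limma 162 of 168 were recovered among 11801 genes with 0 false calls. The simulation gave all genes the same dispersion and held no batch, sex or pair effect. It does not give the power to find smaller changes in these libraries.

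Batch and sex together equal the replicate number as a block. Same-numbered libraries of both genotypes deviated together (r = 0.47, 0.39 and 0.32 across genes), and other combinations ran from -0.32 to -0.01. Precision rests on 3 libraries a genotype. The study's methods state that replicates came from individual mice. Of 53242 genes, 52647 had an identifier in GENCODE M39 (GRCm39), the source of coordinates and start sites. Sequences of at least 100 bases and 95% identity were found with blastn 2.17.0.

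The 10 genes, the lists and the named genes were chosen with earlier results of these data known. Named are all 10 genes, every called gene of the other lists, the 3 genes most like Trp53 and Cdkn1a, and genes on which a limit or a comparison turns.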

Additional observations from a re-analysis of the deposited data

Results flagged for a closer look

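In 4 of 104 groups of 4 libraries examined, a library stood far from the other 3 of its genotype by Dixon's ratio of the gap to the range, and chance gives 5.2. Mdm2 was at 90.0 TPM in control replicate 4, where the nearest control library was at 68.2 TPM (ratio 0.911). Phlda3 was at 19.1 CPM in 4A1 KO replicate 4 against 13.6 CPM in the nearest library (ratio 0.871), and in TPM the values were 25.5 and 17.6 (ratio 0.879). Aen was at 33.6 TPM in control replicate 2 against 45.6 TPM in the nearest control library (ratio 0.929), and without replicate 2 its log2(TPM + 1) difference was 0.35 (adjusted p = 0.0487), past the adjusted p, where the count difference of 0.13 (adjusted p = 0.176) was not.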

How the results depend on the processing

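Zmat3 was called under all alternatives tried in counts and in TPM. Without replicate 2, Eda2r (1.91, adjusted p = 0.0427) and Trp53inp1 (0.56, adjusted p = 0.0171) were called too, which made 3 of the 10 genes, Eda2r having passed the filter on low counts through its 4A1 KO libraries (9.71% of all genes tested were called increased there), and leaving out each replicate in turn gave 1 to 3. Those fits gave 1 to 6 increases among other p53 targets, Eda2r values of 0.54 to 1.91 and Trp53inp1 values of 0.22 to 0.56. The 6, without replicate 4, included Perp, which passed the filter on low counts through its 4A1 KO libraries. Values with no call changed sign for Trp53 in counts (0.0074 without replicate 3, range -0.069 to 0.0074), for Sesn1 in TPM (-0.034 with all 8 libraries, -0.045 without replicate 3, range -0.045 to 0.069), and for Trp53 between batches (0.0090 in 6 libraries). By adjusted p alone the counts were 4 of the 10 genes increased, 7 other targets increased and 13 decreased, 11 regulators increased, and 3737 increased and 3801 decreased genes in all. DESeq2 with normal shrinkage called 1088 increased genes against 1647. With upper quartile normalization 6 of the 10 genes passed the adjusted p, Phlda3 and Cdkn1a besides the 4. In TPM 3 passed with a pseudocount of 0.1 or no filter on low TPM, 2 without replicate 3, 4 without replicate 2 (Trp53inp1 gained, Phlda3 lost) or replicate 4 (Cdkn1a gained, Phlda3 lost), and 1 without the replicate block (Ccng1 adjusted p = 0.0576, Aen 0.0821, Phlda3 0.458). In counts without the replicate block, 2 of the 10 genes passed the adjusted p (Ccng1 0.37, adjusted p = 0.0157, and Zmat3 0.69, adjusted p = 0.00562), and Trp53inp1 (0.32, adjusted p = 0.453) and Aen (0.22, adjusted p = 0.231) did not. The cause of the changes was not tested. Depth limits Eda2r, Gls2 and Trp73.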
